A study of Mus musculus with 6 samples.

Results

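The 34 fatty acid oxidation genes encode mainly the mitochondrial machinery that takes up activated fatty acids, shortens them and passes on the electrons, with the enzymes that activate them and a few peroxisomal enzymes such as Ehhadh and Acaa1a. They were chosen by name, through the RefSeq symbol of each probe's transcript accession, out of 23462 genes with a probe on the array. The brightest probe of a gene stood for it. All 34 had a probe, and each of these probes lay well above background on all 6 arrays.

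Expression was measured in resting microglia, the resident macrophages of the brain, with 3 arrays in each of 2 groups. PGC-1αf/f mice carried a loxP-controlled PGC-1α allele with eGFP and no Cre. mPGC-1α mice carried the same allele together with a tamoxifen-inducible Cre in the Cx3cr1 gene, which other macrophages and some blood monocytes also use. The controls were PGC-1αf/f littermates. Per the study's methods, tamoxifen induction preceded the experiments. All mice were labelled male and aged 10 weeks, on a C57BL/6 background, and the labels name no stroke or other treatment. Cells were selected by antibody to the receptor P2RY12 after a Percoll step. The labels do not say whether an array held 1 mouse or a pool, so the p-values below measure the spread between these arrays only.

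Mitochondrial fatty acid oxidation starts in the cytosol, where acyl-CoA synthetases activate fatty acids. The carnitine shuttle then takes long chains into the matrix, and a cycle of dehydrogenases, hydratases and thiolases removes acetyl-CoA units. Electron transfer flavoprotein and its ubiquinone oxidoreductase hand the electrons to the respiratory chain. PGC-1α is a coactivator of nuclear receptors such as PPARα and ERRα, which are known to drive genes of this pathway in liver, heart and muscle. The comparison therefore asked whether the pathway differed in microglia with the activated allele.

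The promoter stretches of 4 genes are shown because the results turn on Etfa and Ehhadh, because Hadha and Hadhb share a stretch, and because Acadm alone of the members held a searched motif. All are RefSeq bases upstream of the gene's start in GRCm38.p6, written 5′ to 3′ on the gene's strand. Capitals mark a match to AAGGTCA on either strand, the core letters of the site bound by ERRα and related receptors.
Etfa, chr9:55512244-55512493, minus strand: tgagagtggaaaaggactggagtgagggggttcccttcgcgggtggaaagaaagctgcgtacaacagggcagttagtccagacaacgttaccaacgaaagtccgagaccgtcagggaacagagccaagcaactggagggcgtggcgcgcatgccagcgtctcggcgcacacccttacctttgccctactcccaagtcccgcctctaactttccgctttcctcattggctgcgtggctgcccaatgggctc
Ehhadh, chr16:21787835-21788084, minus strand: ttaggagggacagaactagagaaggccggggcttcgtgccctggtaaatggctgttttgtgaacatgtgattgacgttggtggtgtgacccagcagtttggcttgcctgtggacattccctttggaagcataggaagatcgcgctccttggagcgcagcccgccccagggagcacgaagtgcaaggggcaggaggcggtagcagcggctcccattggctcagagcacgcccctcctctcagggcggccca
Hadhb, chr5:30155003-30155252, plus strand: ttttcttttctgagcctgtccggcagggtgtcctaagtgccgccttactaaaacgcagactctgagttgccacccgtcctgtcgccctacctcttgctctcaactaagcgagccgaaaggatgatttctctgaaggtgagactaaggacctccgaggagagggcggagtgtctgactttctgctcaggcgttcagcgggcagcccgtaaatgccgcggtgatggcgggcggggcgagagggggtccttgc
Acadm, chr3:153944834-153944893, minus strand: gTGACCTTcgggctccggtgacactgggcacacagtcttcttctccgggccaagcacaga

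Of the 34 genes, 28 had a promoter window. AAGGTCA lay within the 250 bases upstream of the start in 1 of these 28, Acadm, and in 4.70% of 27025 genes with a window. The longer string TCAAGGTCA lay in 0 of the 28 and in 0.422% of all genes. A match is a description of letters, and the absence of one says only that these letters are not in this window. Hadha and Hadhb point away from each other on chromosome 5, with 272 bases between their starts.

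Ppargc1a, which encodes PGC-1α, was examined first as a check of the labels. On the log2 scale, relative to the 75th percentile of its array, it read 0.19, -0.44 and -1.21 in PGC-1αf/f replicates 1 to 3 and 0.57, 0.28 and 0.08 in mPGC-1α replicates 1 to 3. The groups overlapped, since PGC-1αf/f replicate 1 lay above mPGC-1α replicate 3. The difference was 0.80 ± 0.35 (log2, SE, n = 3 and 3), with an adjusted p of 0.306 in limma. Without PGC-1αf/f replicate 3 it was 0.44.

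Every level below is this same quantity, the log2 processed signal minus the 75th percentile of its array. A difference is mPGC-1α minus PGC-1αf/f, fitted with limma over all tested probes and adjusted by Benjamini-Hochberg. None of the 34 genes passed an adjusted p of 0.05, while 20 of 25257 tested probes did, or 0.0792%. The smallest adjusted p among the 34 was 0.164, for Etfa. At an unadjusted p under 0.05, Etfa and Cpt1b were higher in mPGC-1α, 2 of 34 genes against 7.83% of all tested genes. Ehhadh alone was lower at that level, 1 of 34 against 5.75%. The shares among the members were near those of the background.

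Differences were small. The absolute log2 difference was under 0.2 for 19 genes, at least 0.5 for 2 (Etfa and Cpt1c) and at least 1 for 0. The 95% interval lay within 1 log2 unit of no difference for 28 of the 34 genes. The median SE was 0.16, against 0.18 over all tested genes.

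**Figure D1:**
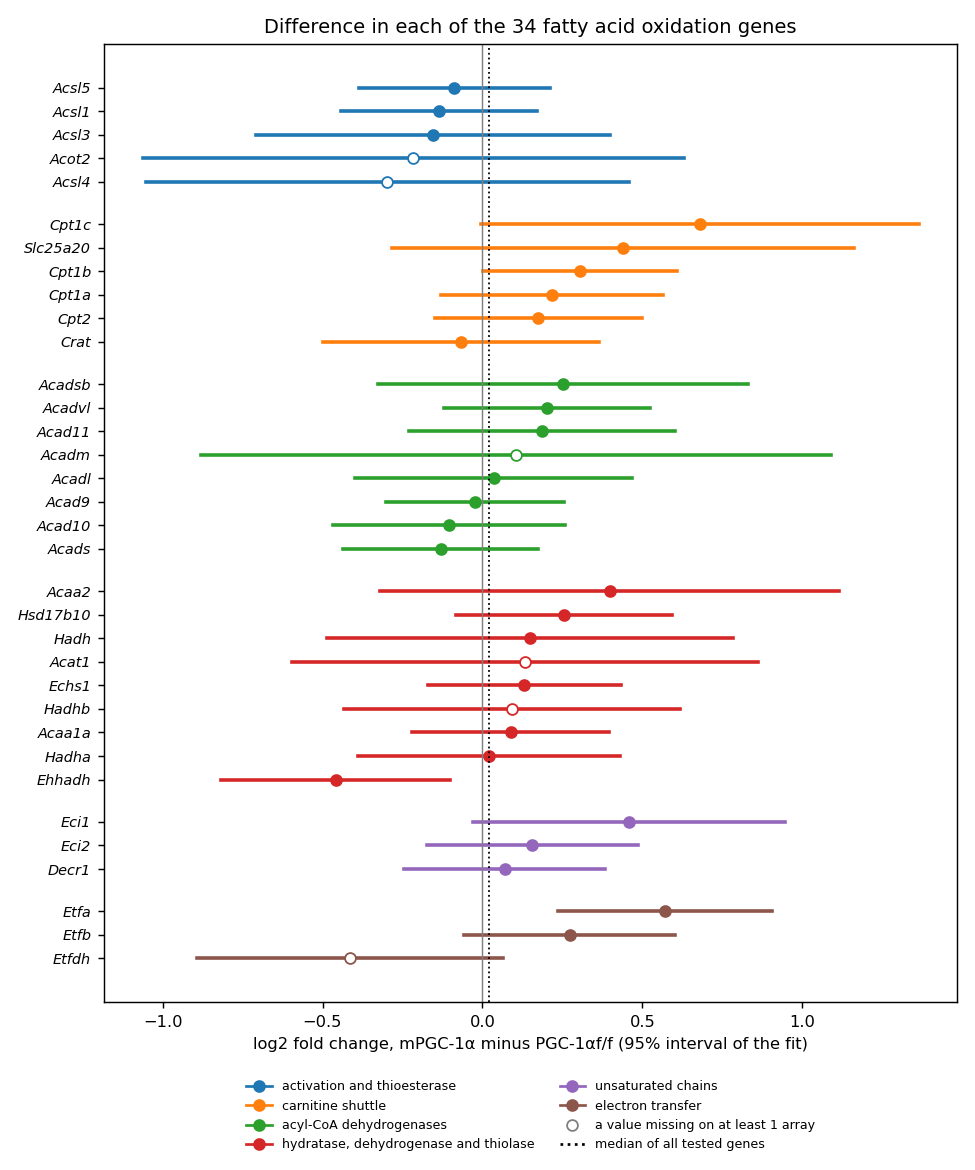
Log2 fold change of each of the 34 genes (horizontal axis, mPGC-1α minus PGC-1αf/f) with its 95% interval, grouped by role; open points lack a value on at least 1 array and the dotted line is the median of all tested genes, 0.02. The intervals of Etfa, Cpt1b and Ehhadh exclude 0.

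The signs leaned to higher values. Of the 34 genes, 23 had a positive difference and 11 a negative one, 67.6% positive against 52.9% of all tested genes. Their median was 0.12, against 0.02 over 13085 tested genes. Shifting arrays by their median turned both, to -0.029 for the members and -0.11 for all genes, and 15 of the 34 were then positive. Relative to the median of all genes, 22 of 34 members lay above under both scalings. Both scalings subtract a constant from each array, so genes with a value on every array shifted by the same amount. The median of all genes moved nearly as far, so this agreement was largely built in and is no separate check. Leaving out PGC-1αf/f replicate 3 brought the members' median to 0.039, against 0.020 over all genes.

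That array stood apart from the others. Its mean correlation with the other 5 arrays was 0.928, against 0.962 to 0.972 for the rest. Of the 28 members with a value on all 6 arrays, 15 were lowest there, against 33.8% of 11861 genes. The members' median deviation from their own mean was -0.19 on it, against -0.03 over all genes. On mPGC-1α replicate 1 the members' median deviation was 0.13, against 0.02 over all genes, and 13 of 28 were highest there, against 19.3% of all genes.

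**Figure D2:**
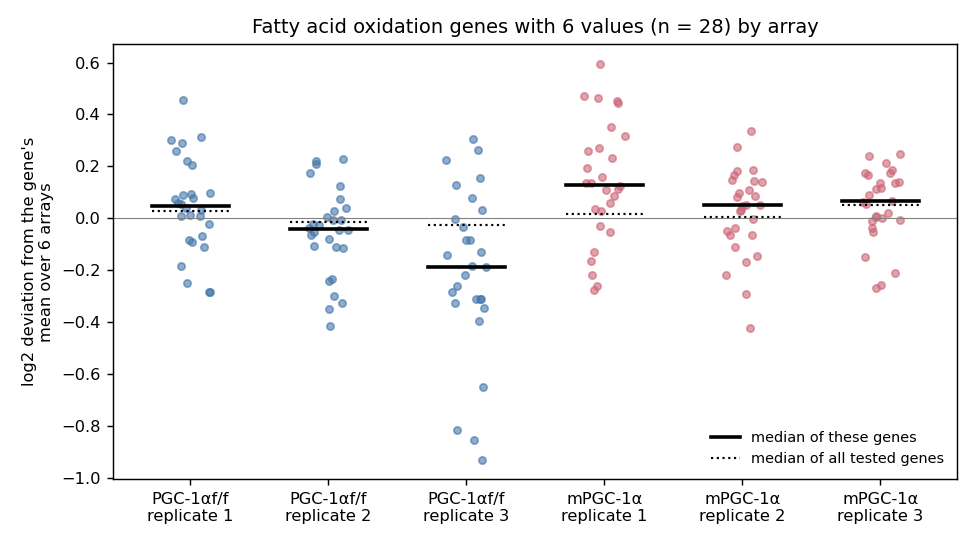
Deviation of each of 28 genes from its own mean over 6 arrays (vertical axis, log2) on each array; solid bars are medians of these genes and dotted bars medians of all tested genes. The lowest solid bar is that of PGC-1αf/f replicate 3, at -0.19.

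Marker lists of other cells were summed in units of the array's 75th percentile, and those of leukocytes, endothelial and mural cells, erythroid cells, astrocytes and border macrophages were lowest on that array. The 15 blood leukocyte markers summed to 104, 120 and 18.7 in PGC-1αf/f replicates 1 to 3 and to between 120 and 150 in mPGC-1α, with 12 markers above background on every array. The 10 endothelial and mural markers summed to 13, 13.8 and 3.44 in PGC-1αf/f and to 13.6 to 17.3 in mPGC-1α, with 6 above background throughout and Tek and Rgs5 on none. The 3 measured erythroid markers summed to 19.9, 20.1 and 4.86 in PGC-1αf/f and to 11 to 19.2 in mPGC-1α. The 10 oligodendrocyte markers differed between the groups without overlap of their sums. They summed to 16.1 to 19.6 in PGC-1αf/f and to 10.1 to 13.3 in mPGC-1α, and 7 were above background on every array. Of 8 tested, 4 were lower at an unadjusted p under 0.05, against 5.75% of all tested genes, and 0 passed the adjusted threshold. Their median difference was -0.58, or -0.44 without PGC-1αf/f replicate 3. The 10 neuron markers summed to 16.1 to 19.7 in PGC-1αf/f and to 18.8 to 20.1 in mPGC-1α, with 8 above background throughout and Slc17a7 on no array. The 10 astrocyte markers summed to 22.2 on PGC-1αf/f replicate 3 and to 28.2 to 40.7 on the other arrays, with 9 above background throughout. The 6 border macrophage markers, all above background throughout, summed to 8.6 on it and to 9.34 to 14.8 on the others. The 12 microglia markers were above background on all arrays, at sums of 207 to 249 and 185 to 214. Their median difference was -0.24, or -0.15 without PGC-1αf/f replicate 3 and -0.13 without mPGC-1α replicate 2. It was -0.37 under the median shift and -0.41 after normexp background correction. Of the 12 markers, 11 had negative differences. Cx3cr1, the gene that carries the Cre in mPGC-1α, was the 1 of them at an unadjusted p under 0.05, at -0.51 ± 0.14 (log2, SE, n = 3 and 3; adjusted p = 0.194 in limma) without overlap of the groups. In RNA from selected cells, fewer cells of a type and less RNA per cell cannot be told apart. The part of these shifts in the members' differences was not tested.

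The labels and 1 slide set further limits. The 4 Y-linked genes examined were above background on 5 arrays and on 0 of 4 probes in mPGC-1α replicate 3, although all mice were labelled male. Xist was above background on that array and on both replicates 2. All 6 arrays shared 1 slide, with PGC-1αf/f in slide row 1 and mPGC-1α in slide row 2, so row and group cannot be told apart. Without mPGC-1α replicate 3 the members' median was 0.13, against 0.0080 over all genes. Within slide column 1, which held replicates 1, the members' median was 0.12, against 0.0091 over all genes. Within column 2, which held replicates 2, it was 0.035, against 0.021 over all genes.

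The electron transfer proteins held the gene with the smallest p. Etfa, the alpha subunit of electron transfer flavoprotein, read 1.91, 1.77 and 1.75 in PGC-1αf/f and 2.56, 2.24 and 2.34 in mPGC-1α. Every mPGC-1α array lay above every PGC-1αf/f array. The difference was 0.57 ± 0.14 (log2, SE, n = 3 and 3) or 1.48-fold. In limma the unadjusted p was 0.00507 and the adjusted p 0.164, and the unadjusted p stayed under 0.05 in 6 of 6 fits with 1 array left out. It was 0.65 within slide column 1 and 0.47 within column 2. A second probe of Etfa gave 0.45, and another, with a value on 3 arrays, gave 0.14. Etfb, the beta subunit, differed by 0.27 ± 0.14 (log2, SE, n = 3 and 3), and its groups did not overlap.

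Etfdh, the oxidoreductase that passes the electrons to ubiquinone, ran the other way. Its spots were flagged as outliers on both replicates 1. On the other arrays it read 0.80 and 0.75 in PGC-1αf/f and 0.49 and 0.24 in mPGC-1α, without overlap. The difference was -0.41 ± 0.19 (log2, SE, n = 2 and 2; adjusted p = 0.342 in limma). With the flagged spots kept, PGC-1αf/f replicate 1 read 0.64 and mPGC-1α replicate 1 read 0.83, and the difference was -0.21. The 3 electron transfer genes had a median of 0.27, and of 0.14 under the median shift.

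The carnitine shuttle had a positive difference in 5 of its 6 genes, with a median of 0.26. The median was 0.13 without PGC-1αf/f replicate 3 and likewise under the median shift. Cpt1b, the muscle form of the outer membrane transferase, read -2.68, -2.44 and -2.52 in PGC-1αf/f and -2.26, -2.21 and -2.26 in mPGC-1α. All 3 mPGC-1α arrays lay above all PGC-1αf/f arrays. The difference was 0.31 ± 0.13 (log2, SE, n = 3 and 3) or 1.24-fold. The unadjusted p was 0.0485 and the adjusted p 0.297 in limma. The unadjusted p was above 0.05 with any 1 of the 6 arrays left out, and the difference was 0.17 under the median shift and 0.16 after normexp.

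Cpt1a, the liver form and the gate of long chains into mitochondria, read 1.55, 1.35 and 1.15 in PGC-1αf/f and 1.57, 1.61 and 1.52 in mPGC-1α. The groups overlapped by 1 array, PGC-1αf/f replicate 1. The difference was 0.22 ± 0.15 (log2, SE, n = 3 and 3), with a 95% interval of -0.13 to 0.56, and 0.11 without PGC-1αf/f replicate 3. Cpt1c, the form known from neurons, had the largest difference of the 34, 0.68 ± 0.29 (log2, SE, n = 3 and 3; adjusted p = 0.301 in limma). Its PGC-1αf/f values spread from -0.02 to -1.21 while mPGC-1α lay between -0.04 and 0.17, so the groups overlapped. Without PGC-1αf/f replicate 3 its difference was 0.38, and without PGC-1αf/f replicate 1 it was 0.98. Of the 8 tested neuron markers, 7 had positive differences, with a median of 0.33, or 0.019 without PGC-1αf/f replicate 3. Their part in the difference of Cpt1c was not tested.

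Slc25a20, the carnitine-acylcarnitine translocase, read -2.60, -3.35 and -3.87 in PGC-1αf/f and -2.78, -2.78 and -2.94 in mPGC-1α. PGC-1αf/f replicate 1 was the highest of the 6. The difference was 0.44 ± 0.31 (log2, SE, n = 3 and 3; 95% interval -0.28 to 1.16), and it was 0.14 without PGC-1αf/f replicate 3 and 0.78 without PGC-1αf/f replicate 1. Cpt2, the inner membrane transferase, read 1.87, 1.87 and 1.67 in PGC-1αf/f and 2.03, 1.84 and 2.07 in mPGC-1α, with overlap. Its difference was 0.17 ± 0.14 (log2, SE, n = 3 and 3), and 0.11 without PGC-1αf/f replicate 3. Crat, which makes acetylcarnitine, was the one negative member at -0.07.

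**Figure D3:**
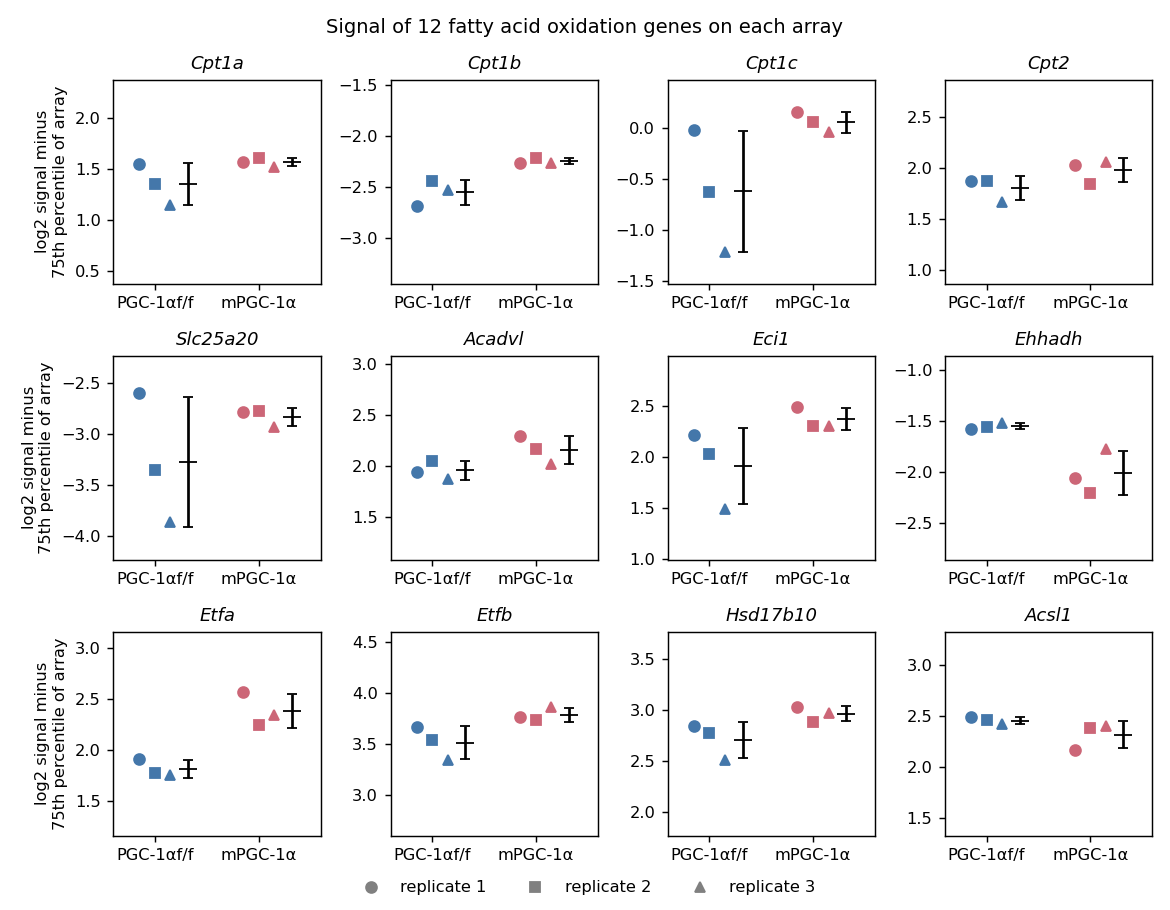
Level relative to the 75th percentile of the array (vertical axis, log2, each panel spanning 2 log2 units) of 12 genes on each array, by replicate; black marks are group means with SD, n = 3 per group. Etfa and Cpt1b lie higher in all mPGC-1α arrays, Ehhadh lies lower, and Cpt1c and Slc25a20 spread widely in PGC-1αf/f.

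The hydratase, dehydrogenase and thiolase steps had a positive difference in 8 of 9 genes, with a median of 0.13. Under the median shift 3 of 9 were positive and the median was -0.021, and without PGC-1αf/f replicate 3 these were 5 of 9 and 0.039. Without PGC-1αf/f replicate 1 the median was 0.24. The one negative member as reported was Ehhadh, the bifunctional enzyme of the peroxisome, which read -1.57, -1.56 and -1.52 in PGC-1αf/f and -2.05, -2.20 and -1.77 in mPGC-1α. Every mPGC-1α array lay below every PGC-1αf/f array. The difference was -0.46 ± 0.15 (log2, SE, n = 3 and 3), a ratio of 0.727. Its unadjusted p was 0.0189 and its adjusted p 0.233 in limma, and the unadjusted p stayed under 0.05 in 3 of 6 fits with 1 array left out. It was -0.48 within slide column 1 and -0.64 within column 2.

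Hadha and Hadhb encode the subunits of the trifunctional protein and share the stretch printed above. Hadha read -1.53, -1.23 and -1.65 in PGC-1αf/f and -1.40, -1.28 and -1.67 in mPGC-1α. Its groups covered nearly the same range, and the difference was 0.02 ± 0.17 (log2, SE, n = 3 and 3; 95% interval -0.39 to 0.43). Hadhb read 3.19, 2.88 and 2.58 in PGC-1αf/f and 3.01 and 2.94 in mPGC-1α replicates 2 and 3, with a flagged spot in replicate 1. Its difference was 0.09 ± 0.21 (log2, SE, n = 3 and 2; 95% interval -0.43 to 0.62), and a second probe gave 0.11. Both signs turned under the shift by the median, to -0.11 and -0.037.

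Hsd17b10, a mitochondrial hydroxyacyl-CoA dehydrogenase, had all mPGC-1α arrays above all PGC-1αf/f arrays, with a difference of 0.25 ± 0.14 (log2, SE, n = 3 and 3), or 0.15 without PGC-1αf/f replicate 3. Acaa2, the matrix thiolase, differed by 0.40 ± 0.30 (log2, SE, n = 3 and 3), by 0.070 without PGC-1αf/f replicate 3 and by 0.65 without PGC-1αf/f replicate 1. Acat1, the acetoacetyl-CoA thiolase, had a value on 5 arrays and differed by 0.13. Leaving out PGC-1αf/f replicate 3 gave -0.30, and leaving out PGC-1αf/f replicate 1 gave 0.57. The remaining Hadh, Echs1 and Acaa1a lay between 0.09 and 0.15.

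The acyl-CoA dehydrogenases, which take the first electrons from chains of different length, had 5 positive and 3 negative differences around a median of 0.07. The median turned to -0.031 without PGC-1αf/f replicate 3, to -0.13 under the median shift and to -0.030 without normalization, and was 0.13 without PGC-1αf/f replicate 1. Acadvl, for very long chains, read 1.95, 2.05 and 1.88 in PGC-1αf/f and 2.29, 2.17 and 2.02 in mPGC-1α. The groups overlapped by a small margin, and the difference was 0.20 ± 0.14 (log2, SE, n = 3 and 3; 95% interval -0.12 to 0.52). The spots of Acadm, for medium chains, were flagged as outliers on 4 arrays, which left 2.07 in PGC-1αf/f replicate 3 and 2.18 in mPGC-1α replicate 3. From 1 array in each group the difference was 0.10 ± 0.31, with an SE borrowed by limma from the other probes. With flagged spots kept, Acadm read 2.15, 1.36 and 2.07 in PGC-1αf/f and 1.37, 1.68 and 2.18 in mPGC-1α, a difference of -0.12. The others lay between -0.13 (Acads) and 0.25 (Acadsb, which ran from 0.079 without mPGC-1α replicate 1 to 0.46 without PGC-1αf/f replicate 1), and the probes of Acad9 gave -0.02 and 0.03.

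All 3 enzymes for unsaturated chains had positive differences, with a median of 0.16. Under the median shift 2 of 3 were positive and the median was 0.024. Without PGC-1αf/f replicate 2 the median was 0.074, the value of Eci2. Eci1, which moves double bonds into place, read 2.22, 2.03 and 1.5 in PGC-1αf/f and 2.50, 2.31 and 2.31 in mPGC-1α. The groups did not overlap, with PGC-1αf/f replicate 3 far below the rest. The difference was 0.46 ± 0.21 (log2, SE, n = 3 and 3; adjusted p = 0.320 in limma), and 0.25 without that array. Eci2 and Decr1 differed by 0.16 and 0.07.

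Activation genes leaned the other way. The synthetases Acsl1, Acsl3, Acsl4 and Acsl5 and the thioesterase Acot2, which releases fatty acids from CoA, had negative differences in 5 of 5, with a median of -0.15, of -0.29 under the median shift and of -0.074 without mPGC-1α replicate 3. Acsl1 read 2.48, 2.46 and 2.42 in PGC-1αf/f and 2.16, 2.38 and 2.40 in mPGC-1α. All mPGC-1α arrays lay below all PGC-1αf/f arrays, by a small margin for replicates 2 and 3. The difference was -0.14 ± 0.13 (log2, SE, n = 3 and 3), or -0.061 without mPGC-1α replicate 1, and a second probe of Acsl1 gave 0.03. The probes of Acsl3 disagreed too, at -0.15 and 0.12, while those of Acsl4 gave -0.30, -0.09 and -0.22. With 1 array left out, Acsl3 ran from -0.35 without mPGC-1α replicate 1 to -0.040 without PGC-1αf/f replicate 3, and Acsl4 was -0.46 when PGC-1αf/f replicate 2 was dropped and -0.13 when replicate 3 of that group was dropped. The brightest probe of Acsl4 had a value on 2 PGC-1αf/f arrays and 1 mPGC-1α array, and Acot2 on 4 arrays, and with flagged spots kept Acot2 differed by 0.0068.

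In 5 of the 28 genes with 6 values all mPGC-1α arrays lay above all PGC-1αf/f arrays (Cpt1b, Eci1, Etfa, Etfb and Hsd17b10), against 12.4% of all genes. In 2 of the 28 all lay below (Acsl1 and Ehhadh), against 10.7%. For 1 gene alone, an exact two-sided permutation test of 3 against 3 arrays cannot go below p = 0.1.

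**Figure D4:**
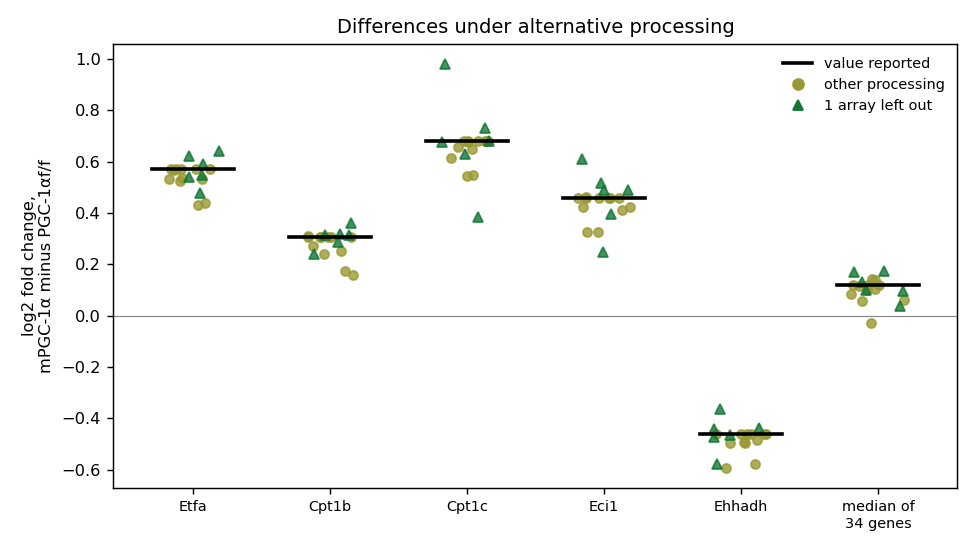
Log2 fold change (vertical axis, mPGC-1α minus PGC-1αf/f) of 5 genes and the median of the 34 as reported (bars), under other processing (circles) and with 1 array left out (triangles). The 5 genes keep their sign throughout, whereas the median falls to -0.029 under the shift by the median.

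Genes next to the pathway were read from lists chosen with earlier results known, and 0 genes of these lists passed an adjusted p of 0.05. Of 20 tested genes of upstream control, 3 had an unadjusted p under 0.05, all with positive differences, against 7.83% of all genes higher at that level, and the median was 0.03, or -0.0045 without mPGC-1α replicate 3. Among them Esrrg, a nuclear receptor partner of PGC-1α, differed by 1.05 ± 0.31 and Acacb, whose product malonyl-CoA inhibits CPT1, by 0.92 ± 0.25 (log2, SE, n = 3 and 3 each). Of 18 tested genes of uptake and lipid stores, 5 reached that level, all with positive differences, against 7.83% of all genes. The median of this list was 0.15, or 0.27 without mPGC-1α replicate 1 and 0.25 without mPGC-1α replicate 3. Dgat2, which makes triglyceride, differed by 1.64 ± 0.58 and Lpl, which frees fatty acids from lipoproteins, by 0.79 ± 0.23 (log2, SE, n = 3 and 3 each). For each of these 4 genes PGC-1αf/f replicate 3 was the lowest array. Without it Dgat2 differed by 1.00, Esrrg by 0.76, Acacb by 0.63 and Lpl by 0.56.

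Peroxisomal oxidation had a median of -0.07 over 14 tested genes, with 1 gene at that level in the negative direction, against 5.75% of all genes. This was Abcd2, a transporter of very long chains, at -0.63 ± 0.20 (log2, SE, n = 3 and 3; adjusted p = 0.228 in limma). Scp2, a peroxisomal thiolase and lipid carrier, differed by 0.34 without overlap between groups, and by 0.19 without PGC-1αf/f replicate 3. In the TCA cycle, which burns the acetyl-CoA, 3 of 17 genes reached it with positive differences, against 7.83% of all genes, with a median of 0.14, or 0.21 without PGC-1αf/f replicate 1. Mdh2 differed by 0.38 ± 0.14 and Idh3b by 0.37 ± 0.15 (log2, SE, n = 3 and 3 each). Fatty acid synthesis had a median of 0.19 over 11 genes, with Acaca and Srebf1 both at 0.20, and 0 of them at an unadjusted p under 0.05. The 15 genes of ketone bodies and of odd and branched chains had a median of 0.21 and likewise 0 at that level. With PGC-1αf/f replicate 3 left out, the list medians were 0.049 for ketone bodies and odd and branched chains, 0.068 for the TCA cycle, 0.10 for uptake and stores, 0.15 for synthesis, 0.056 for upstream control and -8.9e-05 for peroxisomal oxidation. Under the median shift they were, in the same order, 0.061, 0.0029, 0.015, 0.059, -0.089 and -0.20.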

How the data were processed

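Total RNA was amplified, labelled with Cy5 and hybridized to 1-colour Agilent mouse arrays. The deposited scanner files give the processed intensity of each spot, which the authors' Feature Extraction software had corrected for background, with flags. The deposited series table held the same intensity, rounded, without normalization between arrays. The methods name GeneSpring for normalization and no test per gene. No columns of other samples were present.

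Control spots and spots flagged as outliers were left out. From the log2 intensity the 75th percentile of the array, taken over 59305 non-control spots, was subtracted, and spots of a probe were averaged. Probes well above background in at least 0.5 of their spots on all arrays of 1 group or more were tested (25333 of 56605, of which 25257 gave a p). Groups were fitted with limma 3.58.1 in R 4.3.3 (lmFit and eBayes, two-sided) from files read by the package data.table, version 1.17.8, with Benjamini-Hochberg adjustment and a threshold of 0.05. The script was tested on simulated data. No spot was saturated, and 27025 to 30272 spots per array were well above background. The number of arrays limits the precision.

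Members and lists were chosen with earlier results of these data known. All 34 genes could be named. Values on every array were given for those at an unadjusted p under 0.05 and for 9 core genes, and of each neighbouring list at most 2 genes without overlap of groups. Cpt1c, Eci1, Etfb, Hsd17b10, Acaa2 and Acat1 were described in addition after their values were seen. Alternatives covered normalization, background, filters, outlier flags, probes, variance models, slide column and single arrays. Promoters came from RefSeq (GRCm38.p6). Sequences were read with pandas 2.3.3 in Python 3.11.15, and figures drawn with numpy 2.4.6 and matplotlib 3.10.9.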

Additional observations from a re-analysis of the deposited data

How the results depend on the processing

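With array weights, which ran from 0.307 to 5.28, 3 of the 34 genes passed an adjusted p of 0.05: Etfa (0.53), Ehhadh (-0.58) and Cpt1c (0.68), and so did Ppargc1a (0.74). Under every other alternative run, 0 of the 34 passed. Genes higher at an unadjusted p under 0.05 then numbered 7 with array weights, 4 with a trended and robust variance, 1 with the median shift, no filter or quantile normalization, 0 without normalization, and 1 to 4 with 1 array left out. Genes lower numbered 2 with array weights or the median shift, 0 without normalization or filter, and 0 to 1 with 1 array left out. The members' median was -0.029 under the median shift. Probes past the threshold numbered 3494 with array weights, 456 without normalization, 138 with slide column as a random block (consensus correlation 0.349), 11 with the median shift, normexp or quantile normalization, 9 without filter, 4 with all 6 arrays required, and 0 to 25 with 1 array left out, the lowest without mPGC-1α replicate 3 and the highest without PGC-1αf/f replicate 3.

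With the replicate number as a block, 0 probes passed, and the unadjusted p of Cpt1b rose to 0.0704 in limma, above 0.05. Deviations of arrays with the same number correlated at 0.139, 0.127 and 0.0187. Of the 6 arrays, 5 correlated best with the array of their own number. Whether arrays of the same number were paired was not tested. Both replicates 1 lay in slide column 1 and both replicates 2 in column 2, so number and column cannot be told apart there. The labels give no shared litter, day or animal.

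Small differences changed sign. The median shift gave Acaa1a -0.045, Acadl -0.098, Acadm -0.18, Acat1 -0.021, Decr1 -0.063, Echs1 -0.0020, Hadha -0.11 and Hadhb -0.037. Quantile normalization gave Acaa1a -0.011, Acadm -0.0034, Hadha -0.0085 and Hadhb -0.0074. Array weights gave Acadl -0.023, Acat1 -0.13, Acot2 0.065, Acsl5 0.0077 and Hadha -0.059. Without normalization, Acadl was -2.96e-05, Acadm -0.44 and Hadha -0.016. Outlier spots kept gave Acadm -0.12 and Acot2 0.0068. Normexp gave Acad9 0.0091 and Hadhb -0.014, the mean over probes gave Acad9 0.0015, and the random column block gave Acadl -0.026. With 1 array left out, Acad10 ran from -0.18 to 0.0027, Acad9 from -0.047 to 0.0022, Acadl from -0.11 to 0.15, Acat1 from -0.30 to 0.57, Acot2 from -0.63 to 0.20, Crat from -0.21 to 0.048, Hadh from -0.11 to 0.33, Hadha from -0.070 to 0.14 and Hadhb from -0.062 to 0.24. The cause was not tested. With 3 arrays a group, dim probes and small differences are limited by the number of arrays.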
